A study of Mus musculus with 7 samples.

Results

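The 10 genes described here encode proteins that bring about or oppose the degradation of Nrf2, namely Keap1, Cul3, Rbx1, Sqstm1, Dpp3, Palb2, Btrc, Skp1, Cul1 and Gsk3b. They were listed by name for this role, with earlier results of these data known, and make up 10 of the 14641 genes in the table. All 10 passed the filter on low values (a summed count above 1), as did 14637 genes in all, and 9 had at least 10 counts in every library, Palb2 being the exception. RNA from whole heart lysates of male C57BL/6J mice was sequenced in 2 groups. The 3 mNrf2-TG mice carried a transgene for full-length mouse Nrf2 whose αMHC promoter drives expression in cardiomyocytes, and the 4 non-transgenic (NTG) mice lacked the transgene. Both groups retained their own Nfe2l2 gene, which encodes Nrf2, and no drug or other treatment is given for either. The study's methods give an age of 6–7 months and the series description 7–8 months, while the labels give 6 months for the mNrf2-TG libraries. Each mouse gave 1 library of poly(A)-selected RNA, and the libraries are NTG 1 to 4 and mNrf2-TG 17 to 19. The comparison asks whether genes for Nrf2 turnover differ in RNA level when Nrf2 is raised in cardiomyocytes. RNA was measured, and no protein level is reported here.

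Nrf2 is made continuously and is held at a low level by ubiquitin ligases that mark it for the proteasome. In the cytosol, the dimeric adaptor Keap1 grips Nrf2 and presents it to a ligase built on the scaffold Cul3 and the RING subunit Rbx1. Oxidants and electrophiles modify cysteines of Keap1 and so spare Nrf2, and proteins with a Keap1-binding motif of their own, such as p62 (Sqstm1), Dpp3 and Palb2, can occupy Keap1 in its place. A further route does not need Keap1. The kinase Gsk3 phosphorylates Nrf2, and the F-box protein β-TrCP, encoded by Btrc and its paralog Fbxw11, then links it through Skp1 to a ligase built on Cul1 and Rbx1.

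The counts of each library summed to between 6534684 and 8405857 in NTG and between 6953122 and 8060644 in mNrf2-TG. NTG 3 stood apart from the other NTG libraries, with a chi-square per degree of freedom of 16.5–18.2 against them while the other NTG pairs gave 2.93–7.71 and the mNrf2-TG pairs 6.52–10.3. Without NTG 3, the same 4 members passed the test, with a Log2FC of 0.47 for Keap1, −0.57 for Cul3, 0.44 for Sqstm1 and 0.35 for Skp1. Nfe2l2, whose reads include those of the transgene, had 729–1392 counts in NTG hearts and 10912–12839 in mNrf2-TG, which fits the genotype label of every library. Its Log2FC was 3.36 (SE 0.177, adjusted p = 2.96e-06).

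Of the 10 members, Keap1, Sqstm1 and Skp1 were higher in mNrf2-TG hearts and Cul3 was lower, at a Benjamini–Hochberg adjusted p under 0.05 in the quasi-likelihood test of edgeR. These are 4 of 10, against 17.2% of all genes tested. In the single directions, 3 members were higher against a background of 8.48% and 1 was lower against 8.73%. The groups did not overlap in 6 members, against 29.7% of all genes, and 6 had an unadjusted p under 0.05, against 32.2%. These shares are over all 14637 genes with a summed count above 1. Of the 10 members, 9 had at least 10 counts in every library. No share over genes with similar counts was taken, for the members or for the lists below. The median Log2FC of the members was 0.195, beside 0.001 over all genes tested, of which 5% lay below −0.88 and 5% above 1.10. The changes of the members that passed were thus moderate for these libraries, and the 4 lay between −0.56 and 0.49. In all that follows, Log2FC is mNrf2-TG minus NTG, and a normalized count is the count after TMM scaling, at the mean library size.

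**Figure D1:**
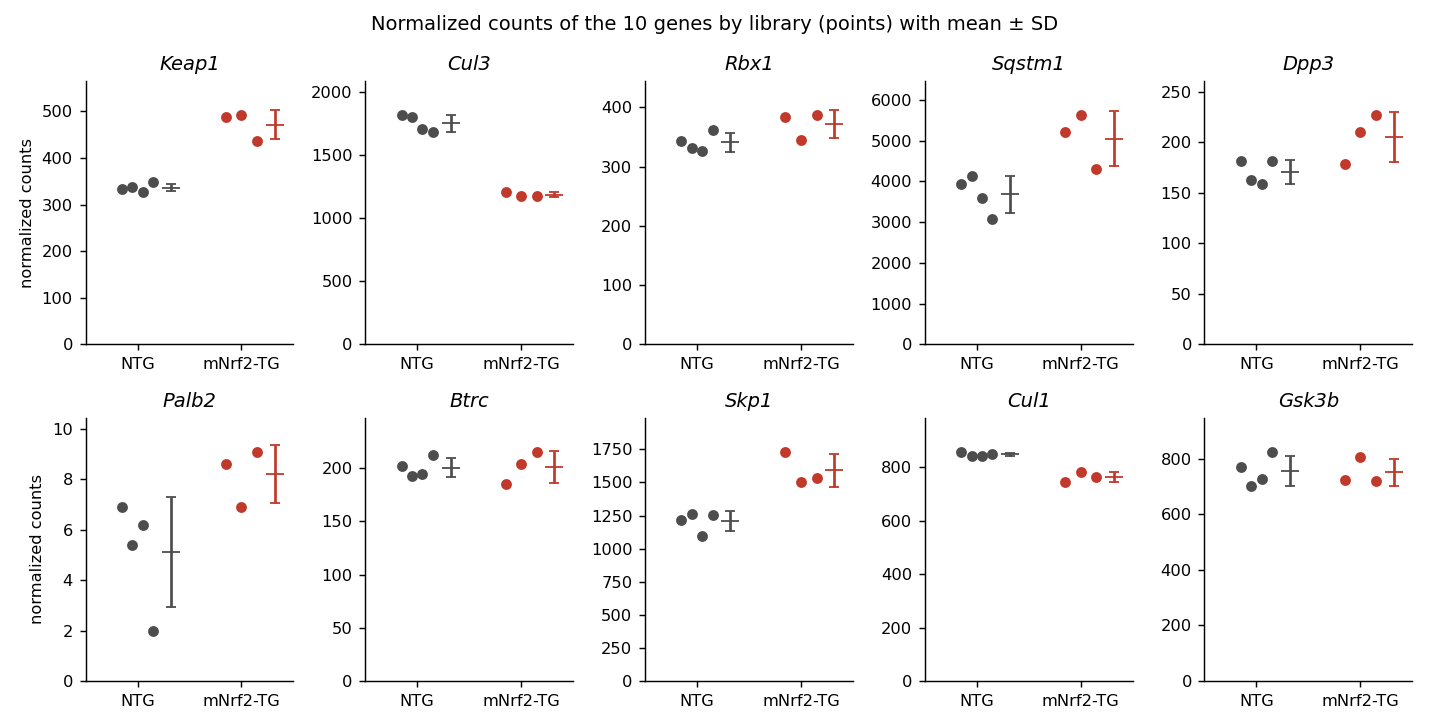
Normalized counts (y axis, linear, from 0) of the 10 members in each NTG and mNrf2-TG library, with 1 panel per gene, a point per mouse and bars for the mean ± SD of 4 and 3 libraries. Keap1, Sqstm1 and Skp1 lie higher and Cul3 lies lower in every mNrf2-TG library than in any NTG library, whereas the points of Rbx1, Dpp3, Btrc and Gsk3b overlap.

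Whole heart RNA mixes cell types, and fewer cells of a type and less RNA per cell cannot be told apart. The summed normalized counts of 5 cardiomyocyte markers were 362383.6–448981.3 in NTG and 319517.3–346453.9 in mNrf2-TG, without overlap, and 1 of the 5, Pln, was lower. The 5 fibroblast markers summed to 7590.1–9879.9 and 10648.3–11215.7, with 3 of 5 higher, and the 5 macrophage and leukocyte markers to 519.7–636.3 and 895.0–1275.9, with 3 of 5 higher. Endothelial markers summed to 5914.0–6350.1 and 5541.4–5889.6, with 1 higher and 2 lower of 5. Smooth muscle, red blood cell and adipocyte markers overlapped in their sums between the groups. Atrial markers were at 684.9–1446.8 and 2025.6–3888.4, with only Nppa higher of 3 tested. The paper counts Nppa among the fetal genes activated in hypertrophy. Skeletal muscle markers were at 14970.5–26817.4 and 12654.9–14256.1, with 3 of 5 lower (Myh4, Myh1 and Ckm). No marker tested was at 0 in a group, and Hbb-bt, Lep, Sln and Bmp10 were not analysed here. Keap1, Cul3, Sqstm1 and Skp1 are expressed in most cell types, and the part of these shifts in their changes was not tested.

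The start sites of the 4 members that passed the test are shown to place these genes in the genome and to ask whether their promoters hold the antioxidant response element (ARE), the site that Nrf2 binds with a small Maf partner. Each sequence is the RefSeq window (GRCm38.p6) from 250 bases before to 50 bases after the annotated start, written 5′ to 3′ on the strand of the gene, with a cAMP response element (TGACGTCA) in capitals where it occurs. Keap1 is at chr9:21239283-21239582, minus strand, Cul3 at chr1:80340641-80340940, minus strand, Sqstm1 at chr11:50210771-50211070, minus strand, and Skp1 at chr11:52231745-52232044, plus strand.
Keap1: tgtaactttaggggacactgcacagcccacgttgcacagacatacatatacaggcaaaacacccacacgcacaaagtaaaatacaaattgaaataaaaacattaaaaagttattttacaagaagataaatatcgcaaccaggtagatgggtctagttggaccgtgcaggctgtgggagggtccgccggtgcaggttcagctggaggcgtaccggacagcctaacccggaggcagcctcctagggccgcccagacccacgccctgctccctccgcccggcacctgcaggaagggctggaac
Cul3: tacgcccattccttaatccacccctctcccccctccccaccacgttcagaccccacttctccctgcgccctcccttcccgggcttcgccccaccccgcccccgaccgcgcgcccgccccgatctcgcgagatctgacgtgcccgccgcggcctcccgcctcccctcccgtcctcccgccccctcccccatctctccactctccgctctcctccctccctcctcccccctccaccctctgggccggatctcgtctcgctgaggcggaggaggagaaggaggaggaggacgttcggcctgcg
Sqstm1: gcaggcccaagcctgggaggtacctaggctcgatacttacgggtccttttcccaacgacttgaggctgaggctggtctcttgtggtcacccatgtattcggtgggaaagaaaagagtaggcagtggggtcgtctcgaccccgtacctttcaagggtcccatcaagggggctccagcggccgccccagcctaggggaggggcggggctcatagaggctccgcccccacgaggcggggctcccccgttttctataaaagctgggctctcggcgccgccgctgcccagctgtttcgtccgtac
Skp1: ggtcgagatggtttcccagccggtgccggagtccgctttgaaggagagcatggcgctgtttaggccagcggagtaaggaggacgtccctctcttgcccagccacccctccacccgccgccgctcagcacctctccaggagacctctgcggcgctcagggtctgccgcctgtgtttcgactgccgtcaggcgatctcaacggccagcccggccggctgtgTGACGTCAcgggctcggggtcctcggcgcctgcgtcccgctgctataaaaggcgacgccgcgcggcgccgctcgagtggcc

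Windows were available for 9 of the 10 members, 12 windows in all, and the member without one is Btrc. The ARE core, TGACNNNGC, searched on both strands, was in 0 of the 12 windows. It was in 12.4% of the 32851 windows of the whole table and in 14% of the 14877 windows of genes tested here. The cAMP response element, which is the same on both strands, was found in 1 member window, that of Skp1, 31 bases before the start at chr11:52231964-52231971. It was in 1.79% of all windows and in 2.75% of those of genes tested. The windows of Cul3 and Skp1 were rich in G and C, at 72.3% and 69.0%, against 63.3% in Sqstm1, 53.3% in Keap1 and a median of 52.7% over all windows. A match describes these letters only, and its absence from a short window says nothing of sites elsewhere.

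Keap1, the substrate adaptor that holds Nrf2 and senses electrophiles, had normalized counts of 333.3, 337.5, 327.9 and 347.5 in NTG and of 488.5, 491.6 and 435.7 in mNrf2-TG. The lowest mNrf2-TG library lay above the highest NTG library, and the NTG libraries were close to each other (336.5 ± 8.27, SD, n = 4, against 471.9 ± 31.4, n = 3). Keap1 RNA was 1.40-fold higher, with a Log2FC of 0.49 (SE 0.0754, 95% interval 0.32 to 0.65, adjusted p = 0.00306). It passed in all 14 alternatives, and leaving out single libraries gave 0.46 to 0.55. In GENCODE M21 (GRCm38), Keap1 lies at chr9:21229730-21239361, and 510 bases of its exons are covered by Gm16754 on the opposite strand. Gm16754 was not analysed here, and 7.78% of the 50-base stretches of Keap1 exons are shared with it.

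Cul3, the scaffold that joins Keap1 to the ubiquitin-conjugating enzyme, changed the other way. Its normalized counts were 1812.3, 1798.1, 1704.6 and 1678.6 in NTG and 1207.2, 1173.4 and 1172.7 in mNrf2-TG. The groups were far apart relative to their spread (1748.4 ± 66.7 against 1184.4 ± 19.7), and the mNrf2-TG libraries were nearly level. Cul3 RNA fell by 32.3%, with a Log2FC of −0.56 (SE 0.0638, 95% interval −0.70 to −0.42, adjusted p = 0.000598), which was the smallest adjusted p of the 10 members. It passed in all 14 alternatives, with a Log2FC between −0.58 and −0.53. No 50-base stretch of its exons (chr1:80264923-80340480) is shared with another annotated gene. The RefSeq window of Cul3 shown above, chr1:80340641-80340940, lies wholly before this GENCODE start at chr1:80340480. The bases between them were not searched for the ARE.

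Rbx1, the RING subunit that recruits the conjugating enzyme to Cul3 and to Cul1 alike, had 326.9–362.4 normalized counts in NTG hearts and 344.8–386.7 in mNrf2-TG. The ranges overlapped, and the Log2FC of 0.12 (SE 0.0795, 95% interval −0.05 to 0.30) had an adjusted p of 0.314. Among the genes of the Keap1 ligase, RNA of the adaptor was thus higher, that of the scaffold lower, and for the RING subunit the interval spans from a slight fall to a 1.23-fold rise.

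The Keap1 to Cul3 ratio of counts was taken within each library, so that scaling between libraries does not enter it. In log2 units it was −2.44, −2.41, −2.38 and −2.27 in NTG and −1.31, −1.26 and −1.43 in mNrf2-TG. Each mNrf2-TG mouse had a higher ratio than each NTG mouse (−1.33 ± 0.09 against −2.38 ± 0.07). The difference of 1.05 corresponds to a 2.07-fold higher ratio of Keap1 to Cul3 RNA, with an exact two-sided permutation p of 0.0286, the smallest that 35 splits of 7 libraries allow, and the same after adjustment over the 2 ratios tested. With group medians the exact permutation p was 0.0571. The ratio joins a member that rose with a member that fell and is not independent of those calls. For Nfe2l2 against Keap1 the log2 ratios were 2.07, 1.89, 1.20 and 1.60 in NTG and 4.62, 4.45 and 4.74 in mNrf2-TG. NTG 3 had the lowest ratio and the NTG libraries were spread more widely (1.69 ± 0.38) than the mNrf2-TG libraries (4.60 ± 0.15). Since the transgene's own reads count as Nfe2l2, a higher ratio follows from the genotype, and its size, 7.54-fold, is given as a description. These ratios describe RNA from all cells of the heart, with the transgene restricted by its promoter to cardiomyocytes.

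**Figure D2:**
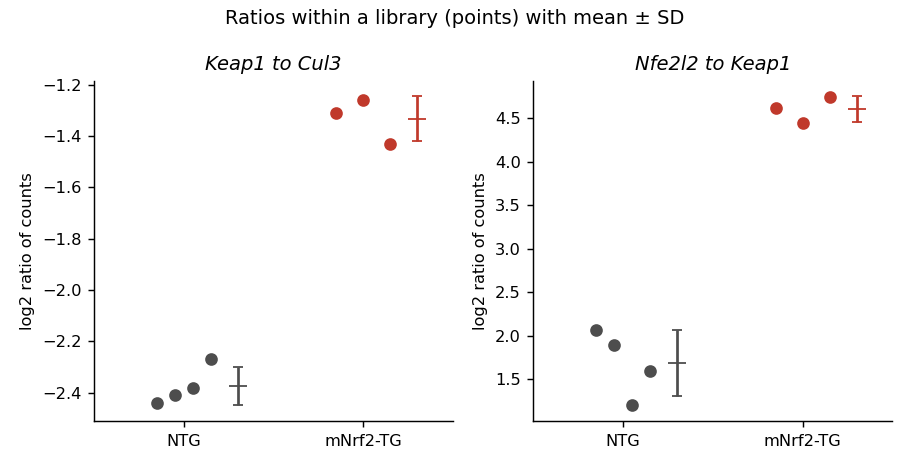
Log2 ratios of counts (y axis) of Keap1 to Cul3 and of Nfe2l2 to Keap1 in each library, with a point per mouse and the mean ± SD of 4 NTG and 3 mNrf2-TG libraries. The mean ratio of Keap1 to Cul3 moves from −2.38 to −1.33 and that of Nfe2l2 to Keap1 from 1.69 to 4.60, with no overlap in either.

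Sqstm1 encodes p62, an autophagy receptor that gathers ubiquitinated cargo, binds Keap1 and carries it to autophagosomes. It had normalized counts of 3945.3, 4128.0, 3588.6 and 3080.5 in NTG and of 5224.6, 5625.6 and 4302.4 in mNrf2-TG. The groups did not overlap, though NTG 2 and mNrf2-TG 19 lay near each other, and the spread was wide in both (3685.6 ± 461.4 against 5050.9 ± 678.5). Sqstm1 was 1.37-fold higher, with a Log2FC of 0.45 (SE 0.116, 95% interval 0.20 to 0.71, adjusted p = 0.0248). This call depended on single mNrf2-TG libraries. Without mNrf2-TG 17 the Log2FC was 0.43 (adjusted p = 0.0863) and without mNrf2-TG 18 it was 0.37 (adjusted p = 0.0951), whereas it passed in the other 12 of 14 alternatives. The exons of Sqstm1 (chr11:50199366-50210827) share 580 bases with Mrnip on the opposite strand, which is 17.3% of their length. Mrnip had 17–24 counts in NTG hearts and 22–30 in mNrf2-TG, and Sqstm1 had 3094–4587 and 4740–5710.

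Dpp3 and Palb2 also encode proteins with a Keap1-binding motif, and neither passed the test. Dpp3, a zinc-dependent dipeptidyl peptidase, had 181.6, 162.9, 158.8 and 181.2 normalized counts in NTG hearts and 178.6, 210.8 and 226.9 in mNrf2-TG. In mNrf2-TG 17 it lay within the NTG range, and the Log2FC of 0.27 (SE 0.109, 95% interval 0.02 to 0.51) had an unadjusted p of 0.0340 and an adjusted p of 0.121. Palb2, which brings Brca2 to sites of DNA repair, was barely counted in whole heart. Its counts ranged from 2 to 6 in NTG hearts and from 7 to 10 in mNrf2-TG. The groups of Palb2 touched at 6.90 normalized counts, and its Log2FC of 0.68, the largest of the members, came with an interval from −0.29 to 1.65 (adjusted p = 0.313). On the fold scale this interval runs from 0.819 to 3.13.

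**Figure D3:**
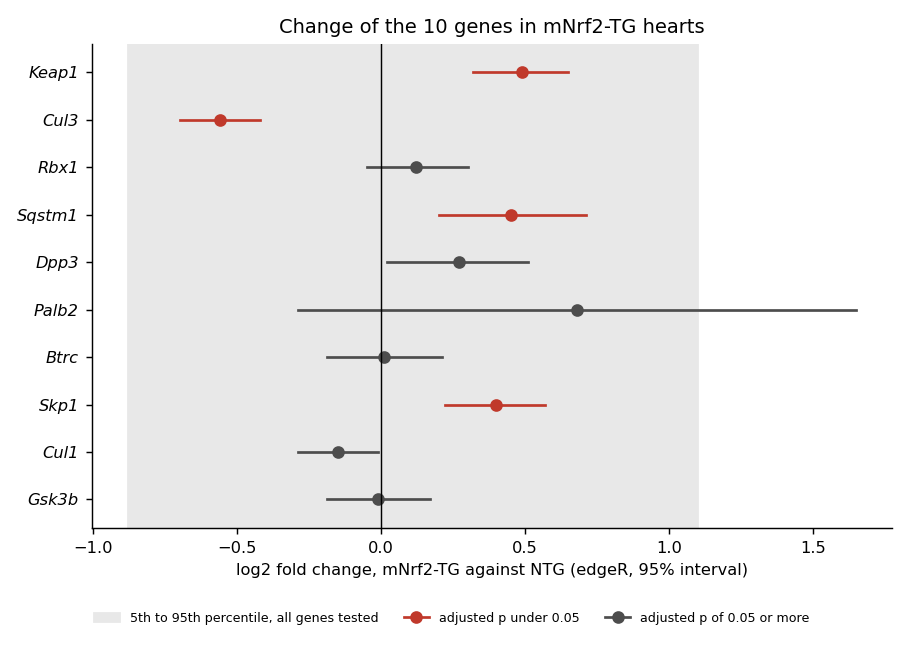
Log2FC (x axis, mNrf2-TG minus NTG) of the 10 members, with bars for the 95% interval of the edgeR fit, the members that passed at an adjusted p under 0.05 in red and the 5th to 95th percentile of all genes tested shaded. Cul3 is alone on the left at −0.56 among those that passed, Keap1, Sqstm1 and Skp1 lie between 0.40 and 0.49, and the interval of Palb2 is the widest.

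In the β-TrCP arm, Skp1 was the only member that passed. Skp1, the adaptor between Cul1 and all F-box proteins, had normalized counts of 1214.7, 1262.6, 1096.2 and 1255.5 in NTG and of 1730.1, 1506.4 and 1535.8 in mNrf2-TG. Every mNrf2-TG library lay above every NTG library, and NTG 3 was the lowest. Skp1 RNA was 1.32-fold higher (1207.3 ± 77.0 to 1590.8 ± 121.5), with a Log2FC of 0.40 (SE 0.0791, 95% interval 0.22 to 0.57, adjusted p = 0.00889). It passed in all 14 alternatives, with adjusted p-values from 0.000473 to 0.0421.

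Cul1, the scaffold of this ligase, had normalized counts of 857.3, 843.2, 842.5 and 850.3 in NTG and of 744.5, 781.3 and 765.2 in mNrf2-TG. The groups did not overlap and the spread was small (848.3 ± 6.95 against 763.7 ± 18.4), but the difference was small as well. Its Log2FC of −0.15 (SE 0.0618, 95% interval −0.29 to −0.01) had an unadjusted p of 0.0342 and an adjusted p of 0.121, and it passed in 0 of 14 alternatives. Skp1 and Cul1 thus had estimates of opposite sign, as Keap1 and Cul3 did, though the Cul1 estimate did not pass.

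Btrc, the F-box protein that recognizes phosphorylated Nrf2 and β-catenin, had 192.6–212.1 normalized counts in NTG hearts and 185.1–215.1 in mNrf2-TG. The mNrf2-TG range enclosed the NTG range, and the interval of the Log2FC (0.01, −0.19 to 0.21, adjusted p = 0.963) leaves room for a change of up to 1.16-fold upward at its end. Fbxw11, its paralog, had means of 563.3 ± 39.4 and 563.0 ± 17.3 (Log2FC 0.00, interval −0.17 to 0.17, adjusted p = 0.998). Gsk3b, the kinase that creates the mark β-TrCP reads, had 702.0–823.4 normalized counts in NTG hearts and 718.9–806.9 in mNrf2-TG. Its Log2FC of −0.01 had an interval of −0.19 to 0.17 (adjusted p = 0.948), and for its paralog Gsk3a the Log2FC was −0.11 (interval −0.27 to 0.06, adjusted p = 0.346). Of the Gsk3a stretches, 25.7% occur in another annotated gene.

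Levels were compared between genes only as RPKM, computed here as reads per kilobase of merged exon after scaling to TMM-adjusted library totals. Sqstm1 was the highest of the 10 in NTG, at 145.9 ± 18.3, followed by Skp1 at 72.5 ± 4.63, Cul3 at 47.7 ± 1.82 and Cul1 at 27.9 ± 0.228. The ranges of these 4 did not overlap. Gsk3b (10.2 ± 0.718), Rbx1 (9.96 ± 0.460) and Keap1 (9.53 ± 0.234) came next, with ranges of 9.49–11.1, 9.54–10.6 and 9.28–9.84 that overlapped, so that their order in NTG is not resolved. Dpp3 (2.93 ± 0.205), Btrc (1.58 ± 0.0690) and Palb2 (0.0926 ± 0.0393) were the lowest.

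In mNrf2-TG the same 4 genes were highest and the same 3 lowest, and Keap1, at 13.4 ± 0.890 (12.3–13.9), lay above Rbx1 at 10.9 ± 0.685 (10.1–11.3) and Gsk3b at 10.1 ± 0.668 (9.72–10.9), whose ranges overlapped each other. The scaffold Cul3 stood above its adaptor Keap1 in both groups, at 47.7 against 9.53 in NTG and at 32.3 against 13.4 in mNrf2-TG. Btrc, at 1.58 in both groups, was far below Fbxw11 at 17.3 in both. Nfe2l2 went from 39.0 ± 9.85 to 401.8 ± 23.0, above every member. In NTG its range (26.3–49.1) overlapped that of Cul3 (45.8–49.4), so that their order there is not resolved. Levels depend on the length used. With the longest transcript in place of merged exons, Btrc rose to 5.64 and Rbx1 to 17 in NTG, and Rbx1 then lay above Keap1 (12.4) and, in NTG, Btrc above Dpp3 (5.04). By that length the NTG means were 59.8 ± 15.1 for Nfe2l2 and 49.3 ± 1.88 for Cul3. Fbxw11 was then at 18.6 in NTG, so that Btrc, at 5.64, lay below it by a smaller factor than over merged exons.

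**Figure D4:**
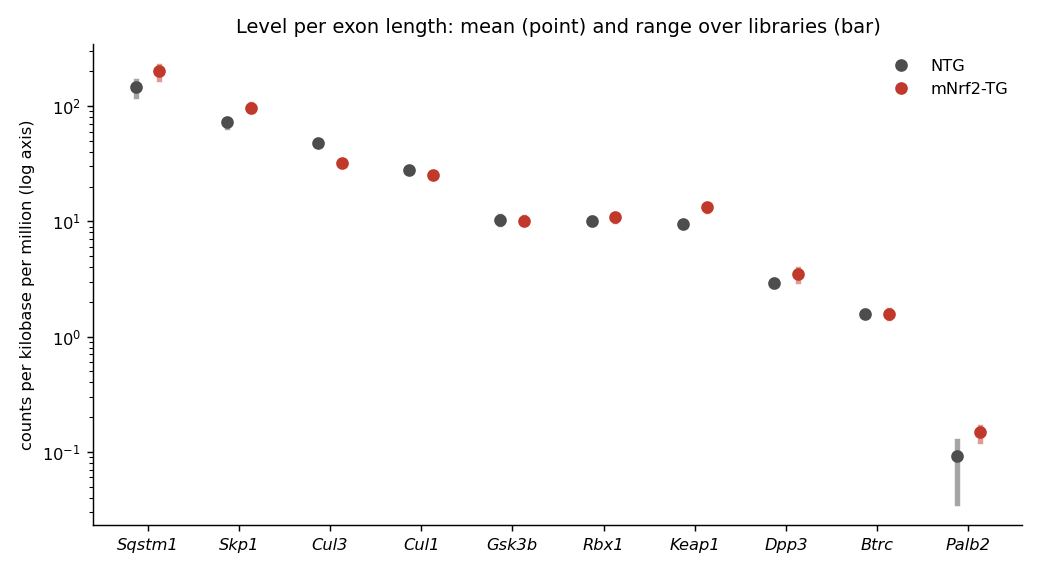
Level of each member (x axis) in RPKM over merged exons (y axis, log scale), with points for the means of 4 NTG (grey) and 3 mNrf2-TG (red) libraries and bars for their ranges. Mean NTG levels run from 0.0926 for Palb2 to 145.9 for Sqstm1, and Keap1 (9.53 to 13.4) and Cul3 (47.7 to 32.3) draw closer in mNrf2-TG.

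The ligases of both arms are switched on by attachment of Nedd8 to the cullin and off by the COP9 signalosome, and Cand1 exchanges the adaptors of free cullins. Of 23 genes of this cycle, 1 was higher and 2 were lower, or 13% against the background of 17.2%, with a median Log2FC of 0.001. Nedd8, the modifier itself, fell from 220.0 ± 17.5 to 143.6 ± 7.97 normalized counts (Log2FC −0.62, SE 0.0996, adjusted p = 0.00372). Cand1 rose from 296.1 ± 10.5 to 411.2 ± 38 (Log2FC 0.47, SE 0.0841, adjusted p = 0.00562). Cops3, a COP9 subunit, was 0.841-fold of NTG in mNrf2-TG (Log2FC −0.25, adjusted p = 0.0394), a call that 7 of 14 alternatives lost. Nedd8 shares 10% of its stretches with Gmpr2 on the opposite strand.

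Among 17 other genes for proteins that bind Keap1 or Nrf2, or act on that binding, 2 were higher and 4 lower (35.3% against 17.2% of all genes, median Log2FC −0.013). Cdkn1a, which encodes the cell cycle inhibitor p21, a protein that binds Nrf2 and shields it from Keap1, had the largest change. It fell from 531.4 ± 73.1 to 151.2 ± 11.2 normalized counts (Log2FC −1.81, SE 0.122, adjusted p = 1.74e-05). Niban2, a membrane-associated protein that can bind Keap1, fell by 34.4% (adjusted p = 0.00357), as did, by smaller amounts, Ptma (Log2FC −0.43, adjusted p = 0.00389), which encodes a small acidic nuclear protein, and Usp15 (Log2FC −0.23, adjusted p = 0.0312), a deubiquitinase of Keap1. Amer1, a Wnt pathway regulator, and Pgam5, a mitochondrial phosphatase that tethers Keap1, were higher with Log2FC of 0.87 (adjusted p = 0.0280) and 0.29 (adjusted p = 0.0353). The call of Amer1 was lost in 5 of 14 alternatives, and 54.6% of the Pgam5 stretches and 20.4% of those of Ptma occur in other genes. Without NTG 1, NTG 2, NTG 4, mNrf2-TG 17 or mNrf2-TG 18 the number of these genes that passed was 3 rather than 6. Over all genes tested, 1602, 1597, 2141, 1372 and 1496 then passed, in that order, against 2519 with every library. Neither Amer1 nor Pgam5 passed in these settings. With DESeq2, and also without mNrf2-TG 19, Amer1 passed and Pgam5 did not.

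Of 20 genes for β-TrCP partners and other Nrf2 ligases, 5 were lower and the other 15 did not pass (25%, where 17.2% of all genes passed and 8.73% were lower, median Log2FC −0.077). Siah2, a RING ligase of the hypoxia response, was lower at −1.15 (adjusted p = 0.0248), with NTG libraries spread from 96.9 to 265.8 normalized counts. Its call was lost in 6 of 14 alternatives, and that of Ube2d1 in 3, without NTG 1 (Log2FC −0.37), mNrf2-TG 18 (−0.35) or mNrf2-TG 19 (−0.40). The conjugating enzyme genes Ube2d3 (Log2FC −0.36, adjusted p = 0.00831), Ube2d1 (−0.41, adjusted p = 0.0183) and Ube2r2 (−0.26, adjusted p = 0.0213) and the casein kinase 2 subunit gene Csnk2b (−0.27, adjusted p = 0.0188) were also lower. Without NTG 1, mNrf2-TG 17 or mNrf2-TG 19 the count was 2, and without mNrf2-TG 18 it was 1. Calls over all genes tested fell as well, from 2519 to 1602, 1372, 1643 and 1496 in that order.

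Gsk3b is restrained by phosphorylation through insulin signalling, and 16 genes upstream of it were examined. Of these 1 was higher and 5 lower (37.5% against 17.2% of all genes, median Log2FC −0.139). Sgk1, a kinase related to Akt, fell from 956.7 ± 88.4 to 466.2 ± 110.1 normalized counts (Log2FC −1.04, SE 0.142, adjusted p = 0.00158). Pik3r1, the regulatory subunit of phosphoinositide 3-kinase, fell by 40.4% (adjusted p = 0.00640). Akt1 (Log2FC −0.37, adjusted p = 0.00833), Akt2 (−0.32, adjusted p = 0.0163) and the phosphatase catalytic subunit Ppp2ca (−0.28, adjusted p = 0.0308) were lower as well, whereas Mtor was 1.34-fold higher (adjusted p = 0.00900). For Ppp2ca, 41% of the stretches occur in another gene. With library totals as the scale, 5 of the 16 genes passed rather than 6. The count was also 5 without NTG 1, NTG 2, NTG 4 or mNrf2-TG 19, and 4 without mNrf2-TG 17 or mNrf2-TG 18. Calls over all genes tested numbered 2417 with library totals, against 2519. With the libraries left out in the order given they numbered 1602, 1597, 2141, 1643, 1372 and 1496. Sgk1, Pik3r1 and Mtor passed in all 14 alternatives, so the lost calls were among Akt1, Akt2 and Ppp2ca.

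Keap1 is 1 of many adaptors that use Cul3, and 35 further adaptor and cullin genes were counted. Here 5 were higher and 3 lower (median Log2FC 0.073), and the share that passed, 22.9%, was near the 17.2% of all genes. Klhl40, a striated muscle adaptor that stabilizes thin filament proteins, rose from 143.4 ± 24.7 to 255.8 ± 32 normalized counts (Log2FC 0.83, SE 0.140, adjusted p = 0.00450). Klhl25 (0.81, adjusted p = 0.0280), Cul7 (0.70, adjusted p = 0.00162), Ipp (0.52, adjusted p = 0.0222) and Klhl21 (0.37, adjusted p = 0.0119) were higher too. Enc1 fell by 47.2% (adjusted p = 0.00830), and Rhobtb1 and Klhl9 were lower with Log2FC of −0.80 and −0.50. Of the stretches of Klhl40, Klhl21 and Klhl9, 20%, 19.8% and 14.8% occur in other genes. The call of Klhl25 was lost in 4 of 14 alternatives. Without NTG 1 the count for the whole list was 5, and without mNrf2-TG 17 or mNrf2-TG 19 it was 4. Calls over all genes tested fell from 2519 to 1602, 1372 and 1643 in these settings.

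Among 17 partners of p62 in selective autophagy, 2 were higher and 4 lower (35.3% against 17.2% of all genes, median Log2FC −0.149). Optn, an autophagy receptor like p62, fell from 1231.3 ± 28.3 to 784.8 ± 65.7 normalized counts (Log2FC −0.65, SE 0.0742, adjusted p = 0.000611), while Sqstm1 itself rose. The Atg8-family genes, whose products coat autophagosomes and dock p62, differed in direction. Gabarap fell by 34.4% (adjusted p = 0.00338), whereas Gabarapl2 was 1.43-fold higher (adjusted p = 0.00417) and Map1lc3a had a Log2FC of 0.35 (adjusted p = 0.00656). Map1lc3b (0.01, adjusted p = 0.947) and Gabarapl1 (−0.02, adjusted p = 0.940) did not pass. The initiation genes Rb1cc1 (−0.46, adjusted p = 0.00231) and Ulk1 (−0.30, adjusted p = 0.0245) were lower. Without NTG 1, NTG 2, mNrf2-TG 17, mNrf2-TG 18 or mNrf2-TG 19, 5 of the 17 genes passed, with 3 lower. Optn and Gabarap passed in all 14 alternatives, so a call of Rb1cc1 or Ulk1 was lost each time. Over all genes tested, 1602, 1597, 1372, 1496 and 1643 then passed, in that order, against 2519. Of the Gabarapl2 stretches, 12.2% occur in other genes.

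**Figure D5:**
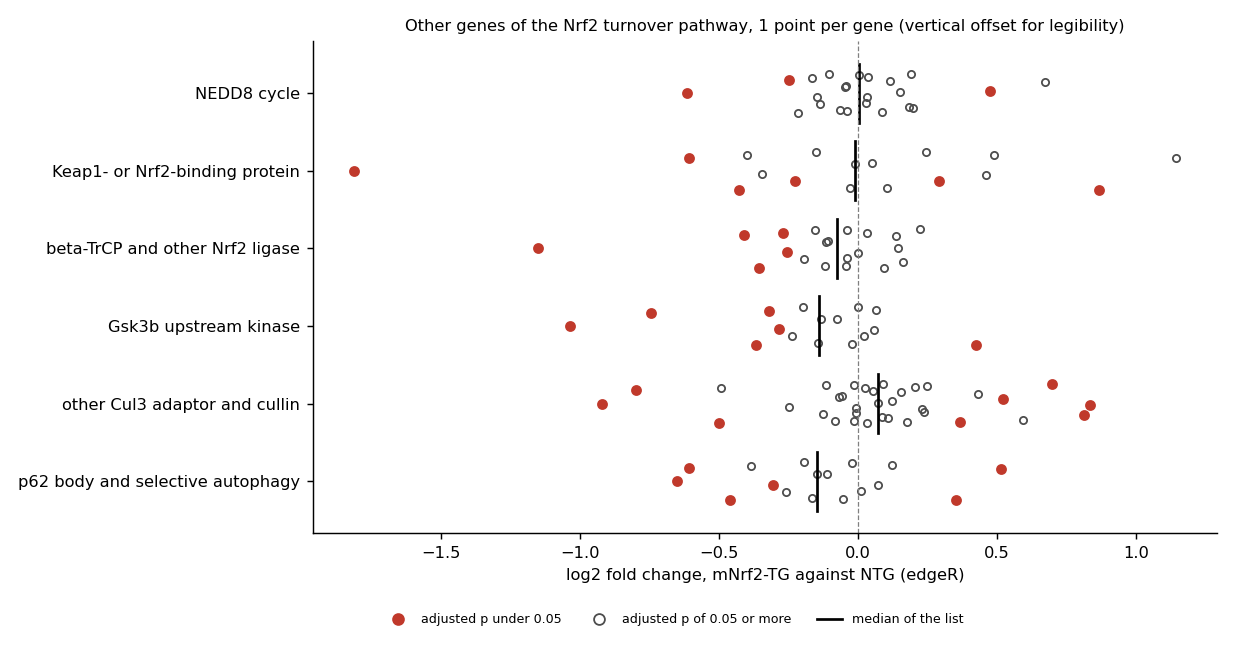
Log2FC (x axis, mNrf2-TG minus NTG) of the genes of 6 pathway lists (rows), with a point per gene, genes with an adjusted p under 0.05 filled in red and a black bar at each list's median. The medians run from −0.149 for partners of p62 to 0.073 for other Cul3 adaptors and cullins, and Cdkn1a at −1.81 is the lowest point.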

How the data were processed

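The authors aligned single 50-base reads of TruSeq Stranded mRNA libraries with Novoalign 2.08.01, allowing up to 50 alignments per read and keeping the best, and deposited raw counts per gene, which were used here. The counting program and the use of strand are not given in the sources used here, so reads from a gene and an antisense partner cannot be told apart. The methods name hg19 in 1 place and mm10 (GRCm38) in another. The deposited rlog values and the authors' DESeq2 1.32.0 comparison (fold changes, p-values) were not used. Of 14665 entries, 24 that repeated an Entrez gene with equal counts were removed, leaving 14641 genes.

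Groups came from the genotype labels. Libraries were compared in edgeR 4.0.16 (R 4.3.3) with TMM scaling and the quasi-likelihood test, without covariates, on the 14637 genes with a summed count above 1, and p-values were adjusted by Benjamini–Hochberg over all of them. The SE was taken as |Log2FC|/√F, and intervals are 95%. Ratios were tested by exact two-sided permutation over 35 splits. The p-values measure the spread between these mice, and intervals do not cover mapping error. The scripts were tested on simulated counts, with changes larger than those of any member, so that test does not cover changes of the members' size. Python 3.11.15 with scipy 1.17.1 and matplotlib 3.10.9 served for ratios, sequences and plots. Exon lengths, overlaps and shared 50-base stretches came from GENCODE M21, and promoter windows from RefSeq.

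Alternatives were DESeq2 1.42.0, limma-voom 3.58.1, DESeq2 size factors, scaling by library totals, the filterByExpr filter, at least 10 counts in each library of either group, no filter, each library left out in turn, medians for the ratios and the longest transcript for the lengths. The members and the gene lists were chosen with earlier results of these data known. Named beside the 10 members are Nfe2l2, Fbxw11, Gsk3a, Nfe2l1, the 3 genes per list with the largest Log2FC among those that passed, and, chosen after their values were seen, the further genes of each list that passed with Map1lc3b and Gabarapl1. Nfe2l1, the Nrf2 relative, had a Log2FC of −0.15 (SE 0.0650, adjusted p = 0.140).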

Additional observations from a re-analysis of the deposited data

Results flagged for a closer look

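Among 34 sets of 4 NTG values tested, 1 library lay far from the others in 2 genes, by a gap that exceeded Dixon's 95% critical value as a share of the whole range. Chance alone flags about 1 set in 20. Cand1 was lowest in NTG 1, at 280.4 normalized counts, where the other NTG libraries had 300.7–302.4 (gap over range 0.923), and all mNrf2-TG libraries were above them at 381.9–454.2. Klhl40 was highest in NTG 3, at 180.5, where the others had 128.7–132.4 (gap over range 0.928), and the mNrf2-TG libraries had 219.7–280.8. Both genes passed in all 14 alternatives, which include leaving out these libraries.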

How the results depend on the processing

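The calls of Keap1, Cul3 and Skp1 were kept under all 14 alternatives, and that of Sqstm1 was lost only without mNrf2-TG 17 or 18 (Log2FC 0.37 to 0.56 as single libraries were left out). Of the 138 values that the alternatives gave for members, 127 kept the direction and the side of the threshold, 2 lost the call and 9, all of Btrc or Gsk3b, changed sign. Leaving out single libraries gave −0.04 to 0.06 for Btrc, −0.07 to 0.04 for Gsk3b and −0.04 to 0.03 for Fbxw11, library totals gave 0.02 for Gsk3b and 0.03 for Fbxw11, and Fbxw11 was 0.00 in limma-voom, 0.01 with filterByExpr and 0.00 with a minimum of 10 counts. Library totals shifted the median of all genes from 0.0011 to 0.0309, and 57.2% of calls were then higher, against 49.3%.

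With single libraries left out, the genes called in all numbered 1372 to 2949, against 2519. They were 1372 without mNrf2-TG 17, 1496 without mNrf2-TG 18, 1597 without NTG 2, 1602 without NTG 1 and 1643 without mNrf2-TG 19. The binding proteins called numbered 3 to 7, the ligase genes 1 to 5, the Cul3 adaptors 4 to 10 and the partners of p62 5 to 7. Fewer libraries were then tested, yet without NTG 3 the genes called in all rose to 2949. Without NTG 4 they numbered 2141. The ratio of Keap1 to Cul3 ranged from 1.01 to 1.10 and that of Nfe2l2 to Keap1 from 2.75 to 3.04, where the exact test cannot go below 0.100 (3 against 3) or 0.0667 (4 against 2). Differences of medians were 1.09 (exact permutation p = 0.0571) and 2.88 (exact permutation p = 0.114, against 0.0286 with means). The rise of the second ratio follows from the genotype, because it counts the transgene's reads. Its p-values are therefore given as a description only. An exact p above 0.0286 means that another split of the 7 libraries gave a median difference at least as large. The groups overlapped in neither ratio. With the longest transcript, NTG levels were 12.4 for Keap1, 17 for Rbx1, 183.2 for Sqstm1, 5.04 for Dpp3, 5.64 for Btrc, 35.7 for Cul1, 91.5 for Skp1, 12.1 for Gsk3b and 0.181 for Palb2. The filters on low counts dropped Palb2, so 2 alternatives gave no value for it. No paired analysis was possible because the groups share no replicate number (1 to 4 and 17 to 19).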
